A study of Mus with 6 samples.

Results

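The genes described here make and load the MHC class I molecule, which shows peptides from inside the cell to CD8+ T cells and to natural killer cells. They were chosen by Ensembl ID: 10 genes, all of which were among the 15646 genes of the deposited table. The samples were orthotopic pancreatic tumors, that is, tumors grown in the pancreas from implanted cells of KPC1199, a line from a mouse pancreatic ductal adenocarcinoma. As hosts served genetically obese ob/ob mice, which lack functional leptin (3 libraries, numbered 1, 3 and 4 in their titles), or lean wild-type mice (3 libraries, numbered 1, 2 and 3). All tumors came from the same implanted line, so the groups are set apart by the host. The sources used here give neither the age and sex of the mice nor the time after implantation. Whether each library came from its own mouse is not labelled either, and the spread behind each p-value may be partly technical.

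A class I molecule has a polymorphic heavy chain, an invariant light chain (beta-2 microglobulin) and a bound peptide. The peptides are cut by the proteasome, in which interferon gamma brings in the immunoproteasome subunits, are pumped into the endoplasmic reticulum by the TAP transporter, and are fitted into the heavy chain in a loading complex held together by tapasin. NLRC5 switches on most of these genes together in mouse and human. Pancreatic ductal adenocarcinoma cells are known for low class I at the cell surface, in part because the protein is degraded by autophagy, a step that RNA does not measure.

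By their RefSeq positions on the mouse build GRCm38.p6, 8 of the 10 genes lie on chromosome 17. The genes Psmb9, Tap1, Psmb8 and Tap2 stand in this order within 34292 bases, at chr17:34182030-34216321. Psmb9 and Tap1 are separated by 225 bases, a gap known to hold a promoter that both genes share. H2-K1 is at chr17:33996012-34000619, Tapbp at chr17:33919478-33929290, H2-D1 at chr17:35263094-35267497 and H2-T23 at chr17:36029977-36032701. The remaining genes are B2m at chr2:122147687-122153082 and Nlrc5 at chr8:94434335-94527272.

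Library totals were 7791756 to 8419274 counts in the obese and 7122533 to 8521244 counts in the lean group. The class I genes took 0.0447% to 0.0525% of the counts in obese and 0.0465% to 0.0498% in lean libraries. Levels are given as CPM, a gene's counts relative to the size of its library after scaling with TMM factors. CPM are not corrected for transcript length, so a level of one gene is not set against that of another. Over all genes tested, obese 3 stood apart from the other libraries on the second principal component of log2 CPM, which carried 15% of the variance, at 37.7 against -17.5 to 6.4. Values without it are given beside the results whose call it changes or whose size it moves by over 1.5 times. The samples are bulk tissue, in which fewer cells of a type and less RNA per cell cannot be told apart. The cell types of the tumors were not checked against markers, because the symbols of other genes could not be matched to the IDs of the table.

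Of the class I genes, Tap1 was the single one called changed, and it was lower in tumors of obese hosts, 2.16-fold. The other 8 genes tested did not pass, and their fitted changes were smaller than that of Tap1. The heavy chains H2-K1, H2-D1 and H2-T23 were fitted higher, by 1.29-fold, 1.10-fold and 1.20-fold, and the transactivator gene Nlrc5 by 1.46-fold. The light chain B2m and Tap2, Tapbp and Psmb8 were fitted lower, by 1.20-fold to 1.37-fold. The genes were compared with edgeR's quasi-likelihood test, and a gene is called where its Benjamini-Hochberg adjusted p over all 14348 genes tested is under 0.05. Of the 9 class I genes that could be tested, 1 was called (11.1%), 0 higher and 1 lower, against 20.8% of all genes tested. Calls lower in obese hosts made up 10.6% of all genes and calls higher 10.3%. At an unadjusted edgeR p under 0.05 the class I genes counted 3 (Tap1, H2-K1 and B2m), against 36.2% of all genes. The median log2 fold change was -0.26 over the 9 class I genes and 0.01 over all genes. The groups did not overlap for 3 of the 9 (33.3%), against 40.3% of all genes. H2-T23 was higher in every obese library (1 of 9, against 20.3% of all genes), and B2m and Tap1 were lower in every obese library (2 of 9, against 20.0%).

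**Figure D1:**
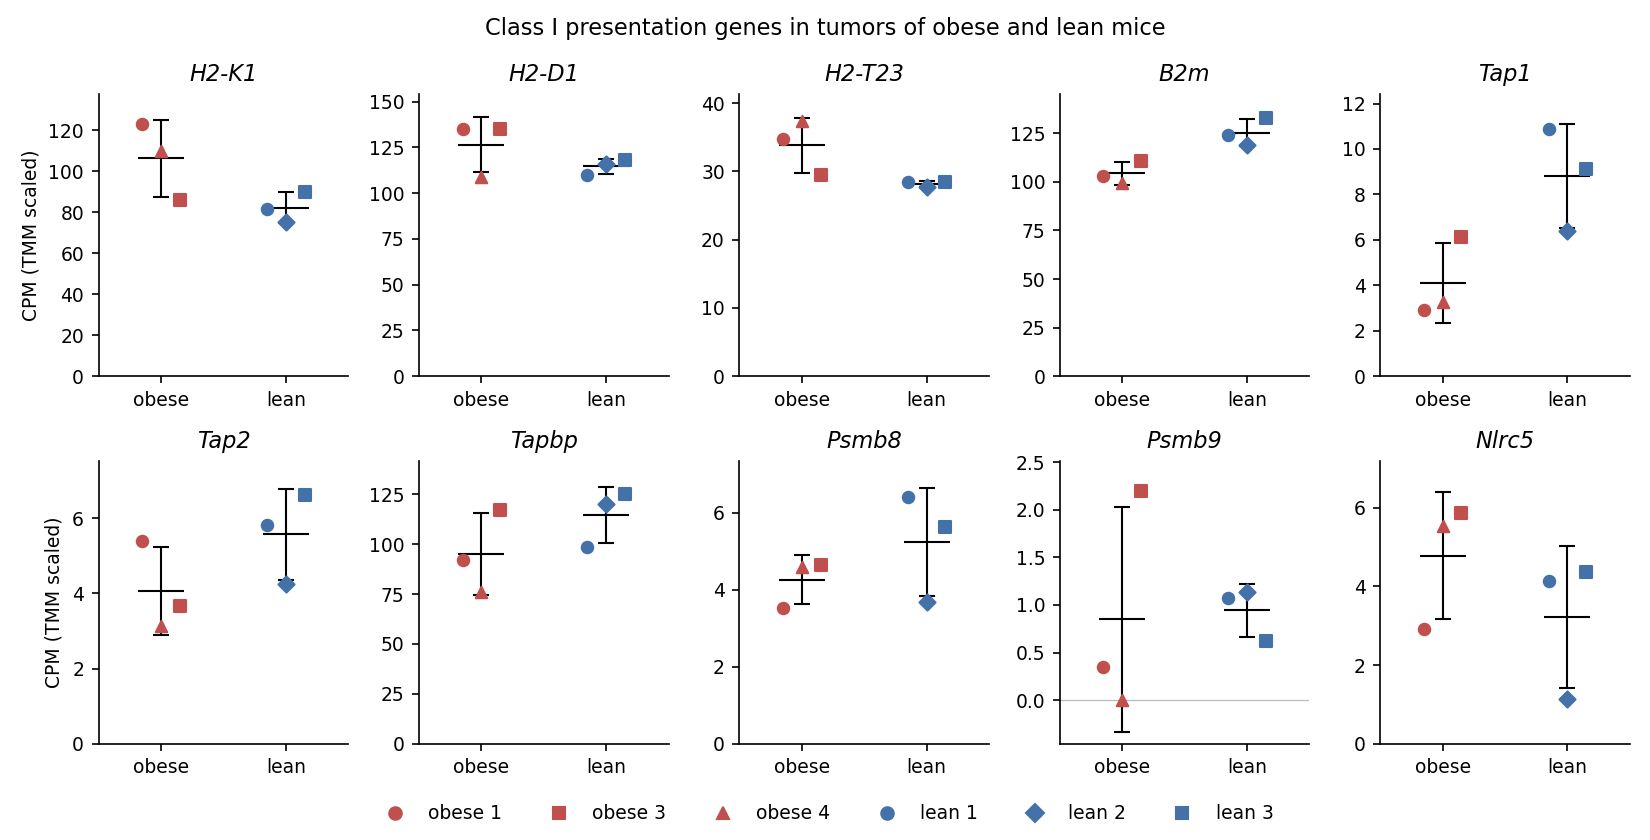
Level of each class I presentation gene (CPM, TMM scaled; each panel has its own axis) in 3 obese and 3 lean libraries, with the mean and SD as black bars. Tap1 lies at 2.93 to 6.12 CPM in obese and 6.39 to 10.9 CPM in lean libraries, and Psmb9 reaches 0 in obese 4.

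H2-K1 (ENSMUSG00000061232.16) encodes the classical heavy chain H-2K, which presents peptides to CD8+ T cells. It had 123, 86.0 and 110 CPM in obese 1, 3 and 4, against 81.7, 75.1 and 89.9 CPM in lean 1, 2 and 3. Obese 1 and 4 were above every lean library, and obese 3 lay within the lean range. The log2 fold change was 0.37 with a standard error (SE) of 0.14 and a 95% interval of 0.06 to 0.67 (edgeR adjusted p = 0.0816). Without obese 3 it was 0.50 and passed the test (edgeR adjusted p = 0.0141). With libraries scaled by total counts only it was 0.43 and passed as well (edgeR adjusted p = 0.0411), and on that scale the groups did not overlap. These were 2 of 14 alternatives, and it did not pass in the others. Among those, it was 0.25 without obese 1 (edgeR adjusted p = 0.28) and 0.30 without lean 2 (0.24). With a block for the replicate number it was 0.26 (edgeR adjusted p = 0.303). That fit rests on obese 1 and 3 against lean 1 and 3, because lean 2 and obese 4 have numbers that the groups do not share.

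H2-D1 (ENSMUSG00000073411.12) encodes the other classical heavy chain, H-2D. It had 135, 135 and 109 CPM in obese 1, 3 and 4, against 110, 116 and 118 CPM in lean 1, 2 and 3. Obese 4 was just below every lean library and the other obese libraries were above them all. The fit gave a log2 fold change of 0.14 (SE 0.11, 95% interval -0.10 to 0.39, edgeR adjusted p = 0.381). This interval runs from 1.07-fold lower to 1.31-fold higher.

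H2-T23 (ENSMUSG00000067212.8) encodes Qa-1, a nonclassical heavy chain that displays leader peptides of other class I chains to the inhibitory receptor CD94/NKG2A of natural killer and T cells. It had 34.7, 29.4 and 37.3 CPM in obese 1, 3 and 4. The lean libraries held 28.4, 27.7 and 28.5 CPM. Every obese library was above every lean one, with obese 3 closest to them, and the lean libraries were alike. In the fit, the log2 fold change was 0.26 (SE 0.14, 95% interval -0.05 to 0.57, edgeR adjusted p = 0.206). Class I heavy chain genes are similar in sequence, and the sources used here do not say how reads that match several of them were counted, so the division of counts between H2-K1, H2-D1 and H2-T23 is uncertain. Their summed level was 292, 250 and 256 CPM in obese 1, 3 and 4, against 220, 219 and 236 CPM in lean 1, 2 and 3.

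B2m (ENSMUSG00000060802.8) encodes the light chain, without which most class I heavy chains do not reach the cell surface. Its level was 103, 111 and 99.3 CPM in obese 1, 3 and 4, against 124, 119 and 133 CPM in lean 1, 2 and 3. Every obese library was below every lean one. The log2 fold change was -0.26 (SE 0.10, 95% interval -0.49 to -0.04), which missed the adjusted threshold (edgeR adjusted p = 0.0844).

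The fitted changes of heavy and light chain stood on opposite sides of 0. For each count of B2m there were 2.84, 2.25 and 2.58 counts of the 3 heavy chains in obese 1, 3 and 4, against 1.77, 1.84 and 1.77 in lean 1, 2 and 3. The log2 ratio of H2-K1 to B2m within a library was 0.01 ± 0.33 in obese and -0.61 ± 0.05 in lean tumors (SD, n = 3 each), a 1.54-fold higher ratio. The obese libraries, at 0.25, -0.37 and 0.14, were all above the lean ones, at -0.60, -0.66 and -0.57. A two-sided exact permutation test gave p = 0.1, the smallest that 3 against 3 libraries allow, and an adjusted p = 0.35 over the 7 ratios compared. Both counts come from the same library, so scaling factors cancel from this ratio apart from the prior count. B2m alone was already lower in every obese library. Single genes did not overlap between the groups for 40.3% of all genes tested. The same share over ratios of gene pairs was not computed. Within the heavy chains, the log2 ratio of H2-D1 to H2-K1 was 0.26 ± 0.34 in obese and 0.48 ± 0.13 in lean tumors (SD, n = 3 each; exact permutation p = 0.4, adjusted p = 0.56). That of H2-T23 to H2-K1 was -1.64 ± 0.15 in obese and -1.53 ± 0.11 in lean tumors (SD, n = 3 each; exact permutation p = 0.4, adjusted p = 0.56). For both ratios the groups overlapped. The difference of -0.22 for H2-D1 to H2-K1 was -0.41 without obese 3 and -0.09 without obese 4, and that of -0.10 for H2-T23 to H2-K1 lay between -0.16 and -0.01 with a library left out.

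**Figure D2:**
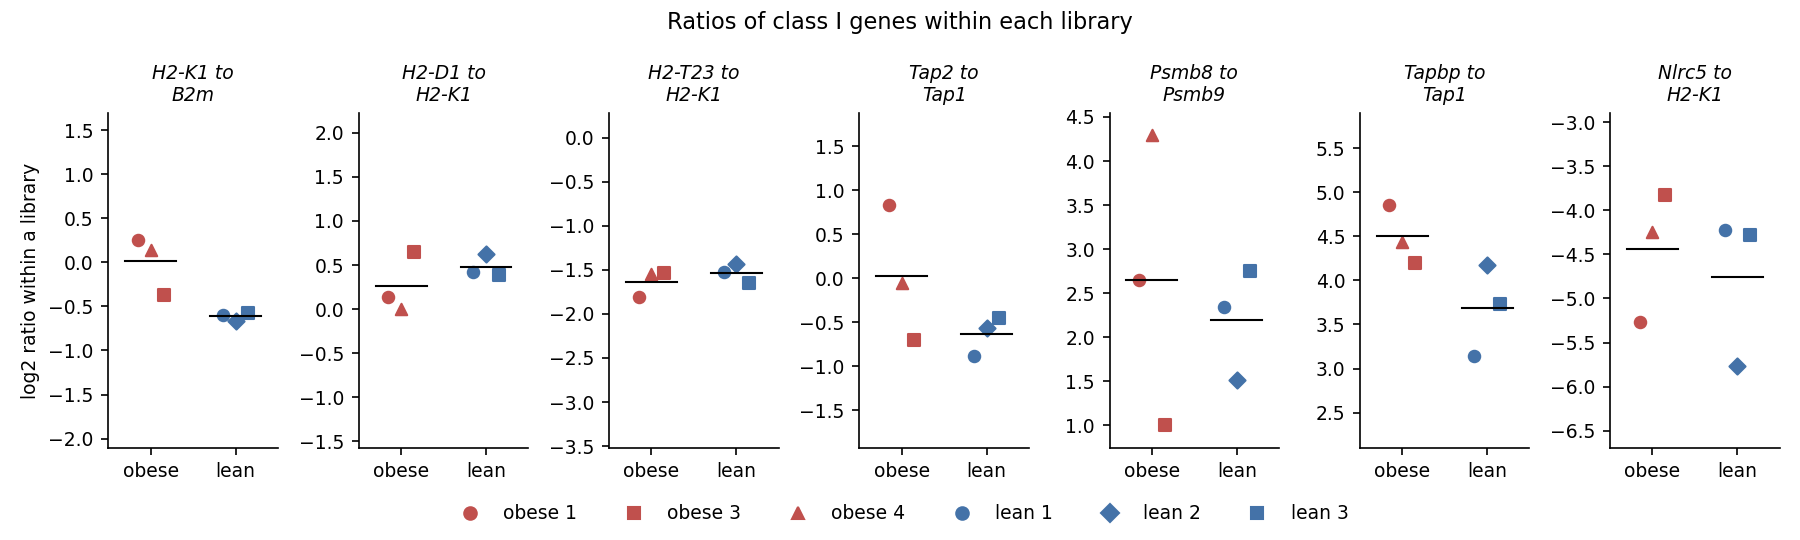
Log2 ratio of CPM of one class I gene to another within each library (prior count of 2), for 7 pairs in obese and lean tumors, with group means as lines; every panel spans the same height in log2 units. The ratio of H2-K1 to B2m and that of Tapbp to Tap1 do not overlap between the groups, and the other ratios do. The levels of B2m and Tap1 alone do not overlap either (CPM, TMM scaled), and the share over other gene pairs was not computed.

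Tap1 (ENSMUSG00000037321.17) encodes a subunit of the TAP transporter, which pumps peptides into the endoplasmic reticulum. It had 25, 50 and 27 counts in obese 1, 3 and 4, or 2.93, 6.12 and 3.26 CPM. The lean libraries 1, 2 and 3 held 92, 45 and 73 counts, or 10.9, 6.39 and 9.14 CPM. Obese 1 and 4 were far below the lean libraries, whereas obese 3 was just below lean 2. Scaled by total counts only, obese 3 stood at 6.42 CPM and lean 2 at 6.32 CPM, so that the groups overlapped. The mean was 4.10 ± 1.75 CPM in obese and 8.82 ± 2.28 CPM in lean tumors (SD, n = 3 each). The log2 fold change was -1.11 (SE 0.34, 95% interval -1.85 to -0.36, edgeR adjusted p = 0.0402), and 7.39% of all genes tested had a greater change in either direction. The call did not hold with total counts only (log2 fold change -1.04, edgeR adjusted p = 0.055). It held without obese 3 (-1.50, edgeR adjusted p = 0.0111) and was lost without any 1 of the other 5 libraries: -0.92 without obese 1 (edgeR adjusted p = 0.13), -0.97 without obese 4 (0.116), -0.93 without lean 1 (0.117), -1.29 without lean 2 (0.0548) and -1.08 without lean 3 (0.103).

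Tap2 (ENSMUSG00000024339.12) encodes the partner subunit, with which TAP1 forms the working transporter. It had 5.39, 3.67 and 3.14 CPM in obese 1, 3 and 4, against 5.82, 4.26 and 6.63 CPM in lean 1, 2 and 3. Obese 1 lay within the lean range, and obese 3 and 4 were below it. Its log2 fold change was -0.45 (SE 0.32, 95% interval -1.16 to 0.25, edgeR adjusted p = 0.331), an interval that runs from 2.23-fold lower to 1.19-fold higher. That Tap1 was called and Tap2 was not does not show that they differ: the log2 ratio of Tap2 to Tap1 was 0.03 ± 0.77 in obese and -0.63 ± 0.23 in lean tumors (SD, n = 3 each; exact permutation p = 0.3, adjusted p = 0.56). Obese 3, at -0.70, lay within the lean range of -0.88 to -0.45. The difference of 0.65 was 1.02 without obese 3 and 0.25 without obese 1.

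Tapbp (ENSMUSG00000024308.15) encodes tapasin, which tethers the empty heavy chain to TAP and favours the binding of tight-fitting peptides. Its level was 92.2, 117 and 76.0 CPM in obese 1, 3 and 4, against 98.5, 120 and 125 CPM in lean 1, 2 and 3. Obese 1 and 4 were below the lean range and obese 3 was within it. In the fit, the log2 fold change was -0.27 (SE 0.16, 95% interval -0.61 to 0.08, edgeR adjusted p = 0.242). Without obese 3 it was -0.44 and passed the test (edgeR adjusted p = 0.044). This was 1 of 14 alternatives, and it did not pass in the others, among them -0.13 without obese 4 (edgeR adjusted p = 0.59). With a block for the replicate number it was -0.09 (edgeR adjusted p = 0.705), in a fit that rests on obese 1 and 3 against lean 1 and 3. Relative to Tap1, Tapbp was higher in every obese library. The log2 ratio was 4.50 ± 0.33 in obese and 3.69 ± 0.52 in lean tumors (SD, n = 3 each). An exact permutation test gave p = 0.1, the smallest possible, and an adjusted p = 0.35. Tap1 itself was lower in every obese library and Tapbp was fitted lower as well, with an interval that includes 0. The higher ratio therefore does not show a rise of Tapbp, and the part of each gene in it was not tested.

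**Figure D3:**
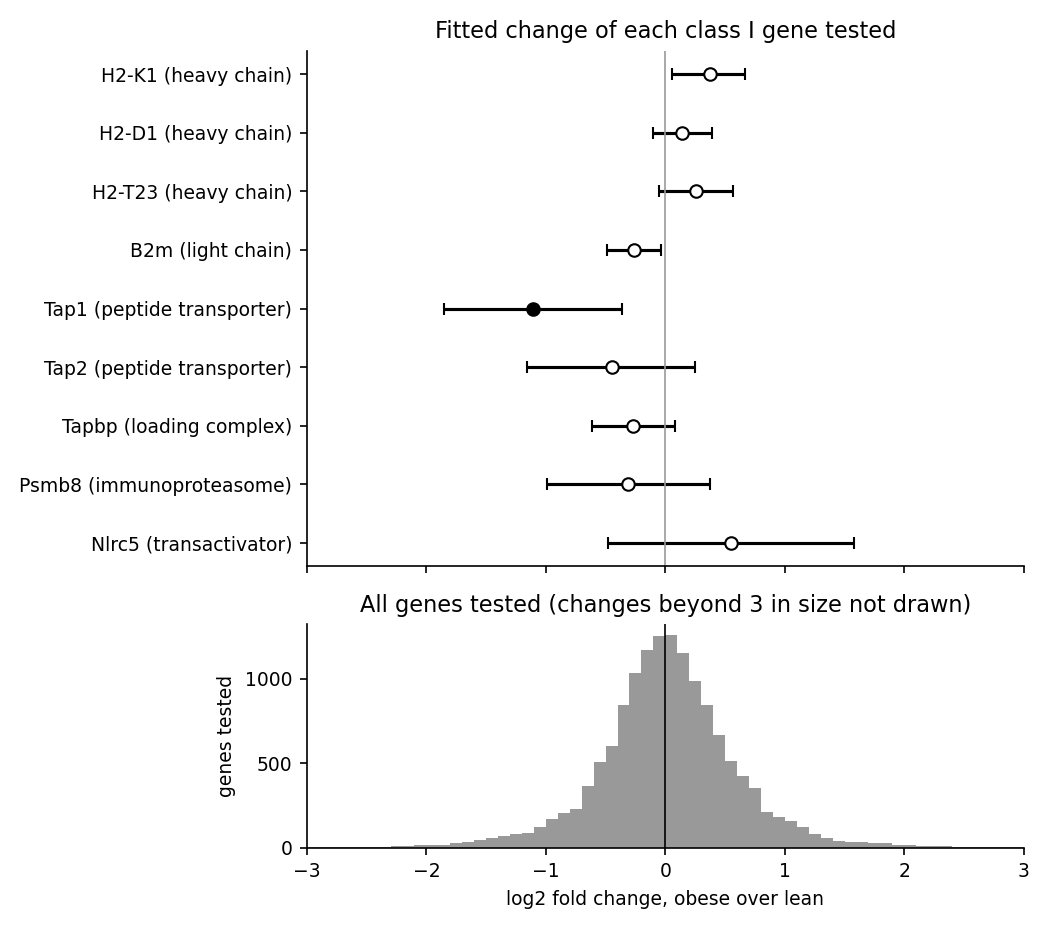
Upper panel: log2 fold change, obese over lean, of the 9 class I genes tested, with 95% intervals from the edgeR fit; the filled point, Tap1 at -1.11, passed the adjusted threshold and the open ones did not. Lower panel: the same quantity over all genes tested, whose median was 0.01.

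Psmb8 (ENSMUSG00000024338.15) encodes a catalytic subunit of the immunoproteasome (LMP7). It had 3.52, 4.65 and 4.59 CPM in obese 1, 3 and 4, against 6.41, 3.69 and 5.63 CPM in lean 1, 2 and 3. The groups overlapped, with lean 2 among the obese values. Its log2 fold change was -0.31 (SE 0.31, 95% interval -0.99 to 0.37, edgeR adjusted p = 0.505).

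Psmb9 (ENSMUSG00000096727.3) encodes another catalytic subunit, LMP2. With 3, 18 and 0 counts in obese 1, 3 and 4 and 9, 8 and 5 counts in lean 1, 2 and 3, it did not pass the filter on low counts and was not tested. Obese 3 held 18 of its 21 counts in obese tumors, and was also higher than either other obese library for Tap1, Tapbp, Psmb8, B2m and Nlrc5. The 0 counts in obese 4 allow up to 0.362 CPM, the level of 3 counts. Summed over libraries and set against their scaled sizes, the ratio of counts was 0.896, obese over lean, with a 95% Clopper-Pearson interval of 0.469 to 1.71 that covers counting error only. Without obese 3, an alternative chosen after seeing the data, the obese libraries held 3 counts against 22 in the lean ones, a ratio of 0.19 (95% Clopper-Pearson interval 0.0364 to 0.633, counting error only). The log2 ratio of Psmb8 to Psmb9 was spread widely, at 2.65 ± 1.64 in obese and 2.20 ± 0.63 in lean tumors (SD, n = 3 each; exact permutation p = 0.8, adjusted p = 0.8). Its difference of 0.45 was 1.27 without obese 3 and -0.37 without obese 4.

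Nlrc5 (ENSMUSG00000074151.13) encodes the class I transactivator. It had 2.93, 5.87 and 5.55 CPM in obese 1, 3 and 4, against 4.15, 1.14 and 4.38 CPM in lean 1, 2 and 3. Lean 2, with 8 counts, was far below every other library, and obese 1 was below the other lean libraries. The fit gave a log2 fold change of 0.55 with a wide error (SE 0.47, 95% interval -0.48 to 1.58, edgeR adjusted p = 0.425), and it was 0.16 without lean 2 (edgeR adjusted p = 0.818). The log2 ratio of Nlrc5 to H2-K1 was -4.44 ± 0.75 in obese and -4.76 ± 0.88 in lean tumors (SD, n = 3 each; exact permutation p = 0.6, adjusted p = 0.7). Without lean 2 the sign of this difference turned, from 0.31 with all libraries to -0.19, and without obese 3 it was 0.00.

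Within each group, single libraries ran high or low over several class I genes. Obese 3 was the highest obese library for 6 of the 10 genes (B2m, Nlrc5, Tapbp, Psmb9, Tap1 and Psmb8) and the lowest for 2 (H2-K1 and H2-T23). Psmb8 was close to a tie, with 38 counts in both obese 3 and obese 4 (4.65 and 4.59 CPM). Lean 2 was the lowest lean library for 7 of the 10 (B2m, Nlrc5, H2-K1, Tap1, Psmb8, Tap2 and H2-T23), and lean 3 was the highest for 7. The part of these libraries in the differences between the groups was not tested beyond the values without them. In a group of 3, some library is highest and some lowest for every gene. The shares over all genes were not computed, so this order is not a trait shown for the class I genes.

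Both counting error and the spread between libraries were larger for the genes with few counts. Tap1, Tap2, Psmb8 and Nlrc5 had a mean of 52.0, 39.0, 38.5 and 32.8 counts per library, so counting alone gave a coefficient of variation of 13.9% to 17.5%. For H2-K1, H2-D1, H2-T23, B2m and Tapbp it was 3.21% to 6.31%. The fitted biological coefficient of variation was 10.3% to 14.5% for these 5 genes, 22.6% to 26.3% for Psmb8, Tap2 and Tap1, and 36.3% for Nlrc5.

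**Figure D4:**
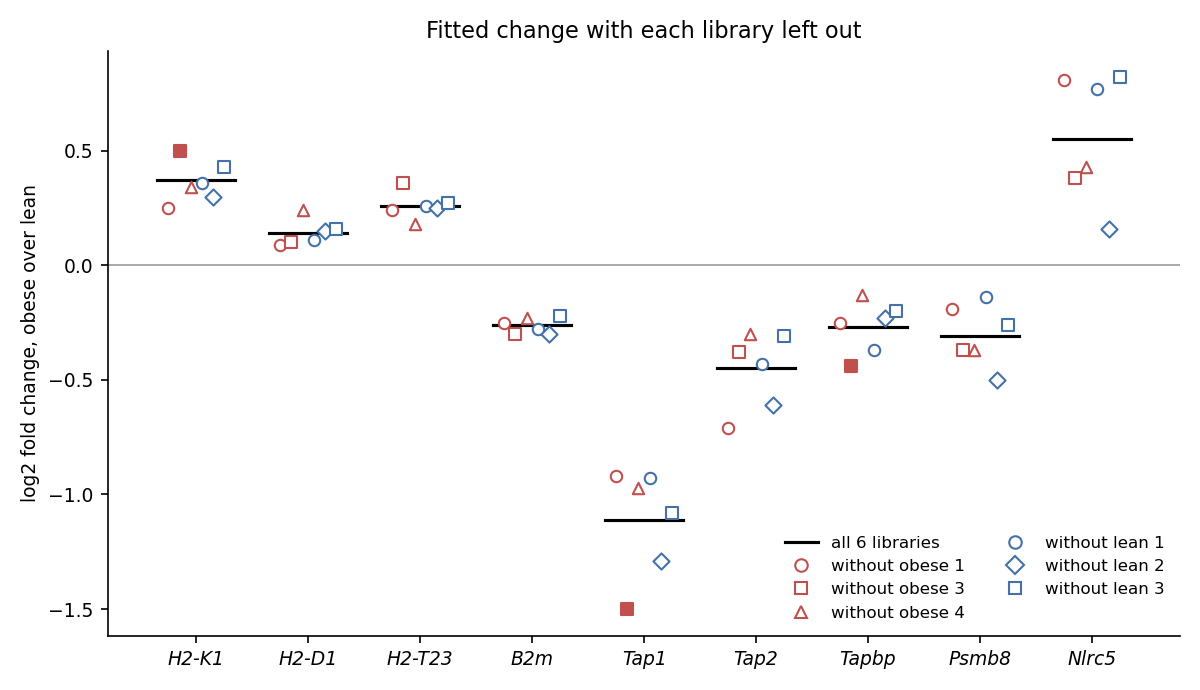
Log2 fold change, obese over lean, of each class I gene with each of the 6 libraries left out in turn; black lines give the value with all 6, filled points passed the adjusted threshold in that fit and open points did not. Without obese 3, H2-K1, Tap1 and Tapbp are filled, and without any other library no gene is.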

How the data were processed

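RNA was measured in 3 obese and 3 lean tumor libraries. Per the labels' protocols, total RNA was depleted of ribosomal RNA before library construction. The authors deposited raw counts per gene; CASAVA, STAR, Subread and GRCm38 are named in the submitters' processing notes. The sources used here do not give versions, strand handling or the treatment of multiply matching reads. Reads of antisense or overlapping genes therefore cannot be told apart. The lowest summed count of a listed gene is 11, so scarcer genes had been removed.

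Titles starting with OB were taken as obese and the others, which start with ND, as lean, since the design names only these kinds of host. All class I genes are described, whatever their values. The genes, the 7 ratios and the lists were chosen with earlier results of these data known, and the sums over heavy chains after the values were seen. Symbols of the class I genes came with their IDs. Of the 49997 rows of the RefSeq table, 0 carry an Ensembl ID, so the 168 entries of lists of related pathways and of cell type markers were not used. No sequences are shown.

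Counts were analysed with edgeR 4.0.16 (R 4.3.3): expression filter (minimum count 10, minimum total 15; 14348 genes kept, 1298 removed), TMM factors, quasi-likelihood F test without covariates, two-sided. SE is the log2 fold change over the square root of F, and intervals use the fit's degrees of freedom. Log2 ratios used CPM with a prior count of 2. Alternatives were other scalings, filters, DESeq2 1.42.0, limma-voom (limma 3.58.1), a block for the replicate number, and fits with each library left out. With the block, lean 2 and obese 4 do not inform the group difference, since their numbers are not shared between the groups.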

Additional observations from a re-analysis of the deposited data

How the results depend on the processing

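Over the choices of scaling, filter and test, the number of class I genes called was 1 in each, but the gene differed: it was H2-K1 with total counts only, and Tap1 in the others. Leaving out each library in turn gave 0 to 3 called class I genes (3 without obese 3), 1179 to 3066 called genes of all, and a median log2 fold change over the class I genes of -0.30 to -0.13. With total counts only, 60.6% of all calls were higher in obese hosts (1797 higher, 1170 lower), against 49.3% (1474 higher, 1517 lower) with TMM factors; upper-quartile factors gave 54.9%. The fitted direction was kept in all alternatives for H2-K1 (0.25 to 0.50), H2-D1 (0.09 to 0.25), H2-T23 (0.17 to 0.36), B2m (-0.30 to -0.20), Tap1 (-1.50 to -0.92), Tap2 (-0.71 to -0.30), Tapbp (-0.44 to -0.09) and Psmb8 (-0.57 to -0.14). Tap1 was called in 8 of 14 alternatives, with adjusted p-values of 0.0111 to 0.13. Psmb9 could be fitted with looser filters alone, at a log2 fold change of -0.15 without a filter (edgeR adjusted p = 0.932) and -0.16 with a CPM of at least 1 in 3 libraries (0.924).

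Replicate numbers 1 and 3 are shared by the groups. Their libraries deviated from their group means with a correlation of 0.090 and 0.074. Both values were above those in pairs of unlike numbers, at -0.131 to 0.066. The labels do not say that equal numbers mark a pairing, so the main fit has no block. Whether libraries of equal number share more than the number was not tested. With the replicate block, 2087 genes were called, Tap1 among them (edgeR adjusted p = 0.0491), the median over the class I genes was -0.09, and Nlrc5 turned to -0.02 (edgeR adjusted p = 0.987). Numbers 2 and 4 are not shared, so lean 2 and obese 4 do not inform the group difference in this fit. It rests on obese 1 and 3 against lean 1 and 3, fewer libraries than in the main fit.

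With a library left out, the difference in log2 ratio between obese and lean tumors was 0.50 to 0.81 for H2-K1 to B2m, 0.55 to 1.06 for Tapbp to Tap1, 0.25 to 1.02 for Tap2 to Tap1, -0.41 to -0.09 for H2-D1 to H2-K1 and -0.16 to -0.01 for H2-T23 to H2-K1. Without a prior count the first 3 were 0.62, 0.87 and 0.68. That of Nlrc5 to H2-K1 was -0.19 to 0.73, with 0.00 without obese 3 and -0.19 without lean 2, and that of Psmb8 to Psmb9 was -0.37 (without obese 4) to 1.27. Psmb8 to Psmb9 has no value without a prior count, since obese 4 held 0 counts of Psmb9. With 3 against 3 libraries these ratios cannot reach an exact p below 0.1.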
